A study of Mus musculus with 6 samples.

Results

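The genes described here are 10 regulators and enzymes of muscle protein breakdown in cultured mouse muscle satellite cells: the FOXO factors Foxo1, Foxo3 and Foxo4, the F-box genes Fbxo32, Fbxo30 and Fbxo40, the MuRF genes Trim63, Trim54 and Trim55, and Klf15. They were taken by gene symbol and were all 10 found among the 27179 gene rows of the count table. The cells came from hindlimb muscles of C57BL/6 mice, were labelled wild type, and are called ageing in the labels, which give no age. Both groups were grown in DMEM with fetal bovine serum and bFGF. One group received recombinant human MG53 protein (rhMG53) and the other bovine serum albumin (BSA), the vehicle control, each for 72 h. Each group had 3 libraries. No label ties a library to a mouse or a culture, so every p-value below measures the spread between these libraries only, part of which may be technical.

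FOXO factors are transcription factors that insulin and IGF signalling hold in check. The kinase AKT phosphorylates them and keeps them out of the nucleus, and when that signal fades they turn on genes of protein breakdown. In skeletal muscle the best known of these targets are Fbxo32 (atrogin-1) and Trim63 (MuRF1), ubiquitin ligase genes used as markers of muscle wasting. MG53 is itself a TRIM family ubiquitin ligase of striated muscle, best known for its part in membrane repair, and insulin receptor substrate 1 has been described as one of its substrates. The comparison of rhMG53 with BSA therefore asks, for these genes, whether the added protein changes the RNA of the atrophy programme.

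Library totals ran from 17374151 to 22738745 counts. The cultures carried strong muscle expression: the 9 myogenic markers (among them Myod1, Myog, Des and Ckm) summed to between 42575.2 and 45039.9 CPM (counts scaled to a common library size) with BSA and between 40635.1 and 45518.9 CPM with rhMG53. Pax7, the defining satellite cell factor, was present at 9.33, 9.60 and 11.2 CPM with BSA and at 7.47, 9.92 and 7.94 CPM with rhMG53, and the embryonic myosin gene Myh3 at 22391.6 and 20527.4 CPM, so the cultures held differentiated muscle cells. Fibroblast markers (6 genes) summed to between 1013.2 and 1258.1 CPM with BSA and between 1159.4 and 1260.6 CPM with rhMG53. Endothelial markers (4 genes) stayed at or below 1.32 CPM, leukocyte markers (5 genes) at or below 5.79 CPM and adipocyte markers (3 genes) at or below 0.275 CPM in every library. The 4 Schwann cell markers summed to between 1.01 and 1.70 CPM with BSA and between 2.06 and 2.19 CPM with rhMG53, and the 3 mural cell markers to between 32.2 and 33.4 and between 33.2 and 40.3 CPM, and the part of these cells in any result was not tested. No marker of any list was at 0 in all 6 libraries. The libraries BSA replicate 3 and rhMG53 replicate 2 stood apart from the rest in their long transcripts. Of the tested genes, the 1295 with the longest annotated exon sequence (the top 10%, from 7306 bases) had a median deviation from each gene's own mean log2 CPM of -0.114 and -0.203 in those libraries, against 0.058 to 0.129 in the other 4. The part of this difference in the results below was not tested, and counts without both libraries, a choice made after the data were seen, are given beside the first test. In such bulk RNA, fewer cells of a type and less RNA per cell cannot be told apart.

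The stretches around the transcription starts are shown first, because of the genes with a window only Trim63 held the core FOXO binding element. The RefSeq promoter table (GRCm38.p6) had an entry for 7 of the 10 genes, each with 250 bases before and 50 bases after a start, and named none for Foxo4, Fbxo32 and Trim55. Searched on both strands were the FOXO core GTAAACA, which reads as TGTTTAC on the other strand, and the E-box CAGCTG, a letter string that myogenic factors such as myogenin bind and that reads the same on both strands. The motifs do not overlap in these windows. Capitals mark their matches.
Trim63 (chr4:134314870-134315169, plus strand): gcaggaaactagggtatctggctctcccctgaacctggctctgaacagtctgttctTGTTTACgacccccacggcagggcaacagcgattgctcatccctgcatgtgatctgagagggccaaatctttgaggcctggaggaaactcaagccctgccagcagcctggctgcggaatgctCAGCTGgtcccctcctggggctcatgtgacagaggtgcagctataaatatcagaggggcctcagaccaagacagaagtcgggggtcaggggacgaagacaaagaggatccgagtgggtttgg
Trim54 (chr5:31116362-31116661, plus strand): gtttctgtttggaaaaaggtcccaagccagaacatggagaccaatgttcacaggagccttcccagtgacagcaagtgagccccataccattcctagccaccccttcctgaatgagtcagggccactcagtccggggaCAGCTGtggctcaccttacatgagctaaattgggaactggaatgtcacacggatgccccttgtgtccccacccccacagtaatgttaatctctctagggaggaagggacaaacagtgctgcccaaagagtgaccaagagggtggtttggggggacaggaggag
Fbxo40 (chr16:36990418-36990717, minus strand): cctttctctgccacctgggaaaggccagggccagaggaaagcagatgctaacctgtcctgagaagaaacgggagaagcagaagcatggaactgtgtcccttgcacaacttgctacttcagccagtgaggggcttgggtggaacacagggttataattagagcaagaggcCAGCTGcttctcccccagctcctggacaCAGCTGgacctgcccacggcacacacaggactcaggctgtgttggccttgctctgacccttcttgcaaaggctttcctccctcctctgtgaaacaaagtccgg

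In Trim63 the FOXO core lies on the minus strand with its first printed base at position -194, counted from the first transcribed base as 1, and the E-box begins at -72. The E-box begins at -113 in Trim54 and at -81 and -53 in Fbxo40, whose second annotated start has another at -89. Neither motif was found in the windows of Foxo1, Foxo3, Fbxo30 or Klf15. Of 32851 mouse promoter windows of this length, 3.65% held the FOXO core and 16.3% the E-box. Base composition differs between these windows, with 57.0% G and C in Trim63 and 54.0% in Trim54 against 79.7% in Fbxo30 and 75.0% in Foxo3. The matches describe letters in a short window and not binding in these cells.

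Levels differed widely among the 10 genes and far more than between the treatments. Levels of different genes are given as CPM per kilobase of annotated exon, averaged over the 6 libraries. The MuRF genes led, with Trim54 at 99.8, Trim55 at 77.4 and Trim63 at 35.5 CPM per kilobase. Foxo4 followed at 25.8, then Fbxo30 at 9.06, Fbxo32 at 8.97, Fbxo40 at 6.35, Foxo3 at 4.46, Foxo1 at 3.58 and Klf15 at 0.901. Of the 9 pairs of neighbours in this order, 6 did not overlap over the libraries. The lowest Trim54 value (94.0) lay above the highest Trim55 value (83.4), and the lowest Foxo4 value (24.1) above the highest Fbxo30 value (9.93). The ranges of Fbxo30 and Fbxo32 overlapped, with Fbxo30 the higher in 5 of 6 libraries and a ratio between 0.858 and 1.13. The ranges of Fbxo40 and Foxo3 overlapped, although Fbxo40 was the higher in 6 of 6 libraries, and those of Foxo3 and Foxo1 overlapped, with Foxo3 the higher in 5 of 6. Using the longest transcript as the length, a choice made after the data were seen, left all 10 genes in the same place.

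**Figure D1:**
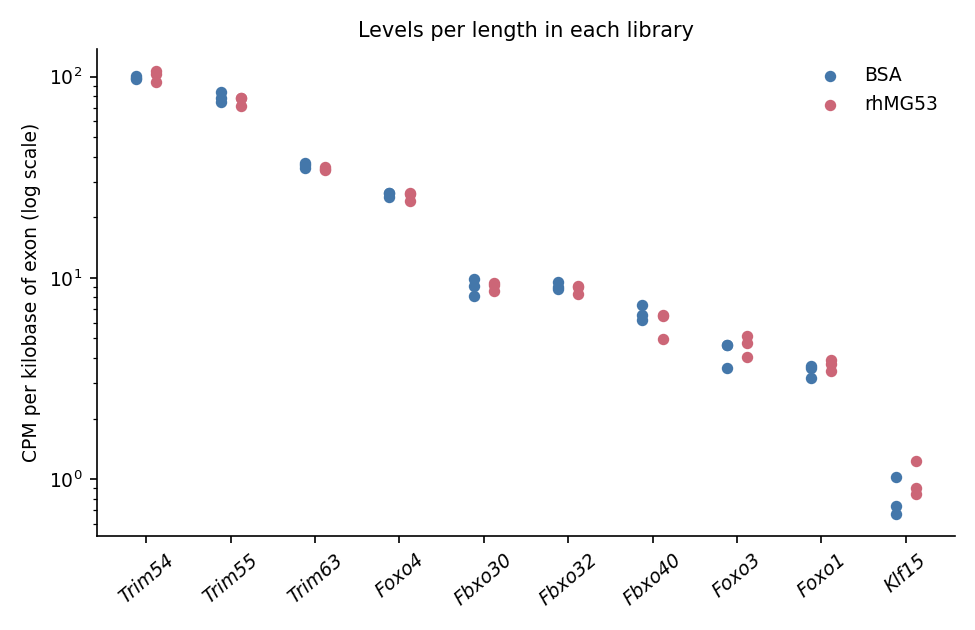
CPM per kilobase of exon (vertical axis, log scale) for each of the 10 genes, ordered by their mean; each point is 1 library, BSA in blue and rhMG53 in red. The order runs from Trim54 (99.8) to Klf15 (0.901), and within every gene the colours overlap.

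Set against all tested genes with a known length, Trim54 and Trim55 stood at the 96.1 and 94.6 percentiles of level per kilobase, Trim63 at 87.5 and Foxo4 at 82.7. Fbxo32, the classical atrophy marker, stood at only 59.9, close to Fbxo30 (60.3), and Klf15 at 16.5. Among 40 tested TRIM genes, Trim54 ranked 3, Trim55 ranked 4 and Trim63 ranked 7. The cells' own MG53 gene, Trim72, ranked 1 at 625.0 CPM per kilobase. Among 56 tested F-box genes the median was 5.56 CPM per kilobase, and Fbxo30, Fbxo32 and Fbxo40 ranked 14, 15 and 26. These counts of family members go by symbol.

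No difference between rhMG53 and BSA passed the test for any of the 10 genes. All 10 passed the filter on low counts, and in edgeR's quasi-likelihood test 0 of 10 passed an adjusted p of 0.05, against 0.0218% of all 13769 tested genes (3 genes), so that a count of 0 among 10 genes is what the background gives. At an unadjusted p under 0.05 there were also 0 of 10, against 5.20% of all tested genes. DESeq2 and limma voom each gave 0 of 10 at both thresholds. Over all 13769 tested genes DESeq2 gave 5 at the adjusted and 368 at the unadjusted threshold, and limma voom 3 and 711. The groups overlapped in all 10, whereas 10.8% of all tested genes had groups that did not. The log2 fold change of rhMG53 against BSA was positive for 4 genes and negative for 6, with 49.5% negative over all tested genes, and its median was -0.017, against 0.001 over all tested genes. Adjusted p lay between 0.973 and 0.999 for the 10. Without BSA replicate 3 and rhMG53 replicate 2, edgeR again gave 0 of 10, with 4 genes positive and a median of -0.023, while Fbxo32 (0.026) and Trim54 (-0.008) changed sign and 10 genes of the whole table passed.

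**Figure D2:**
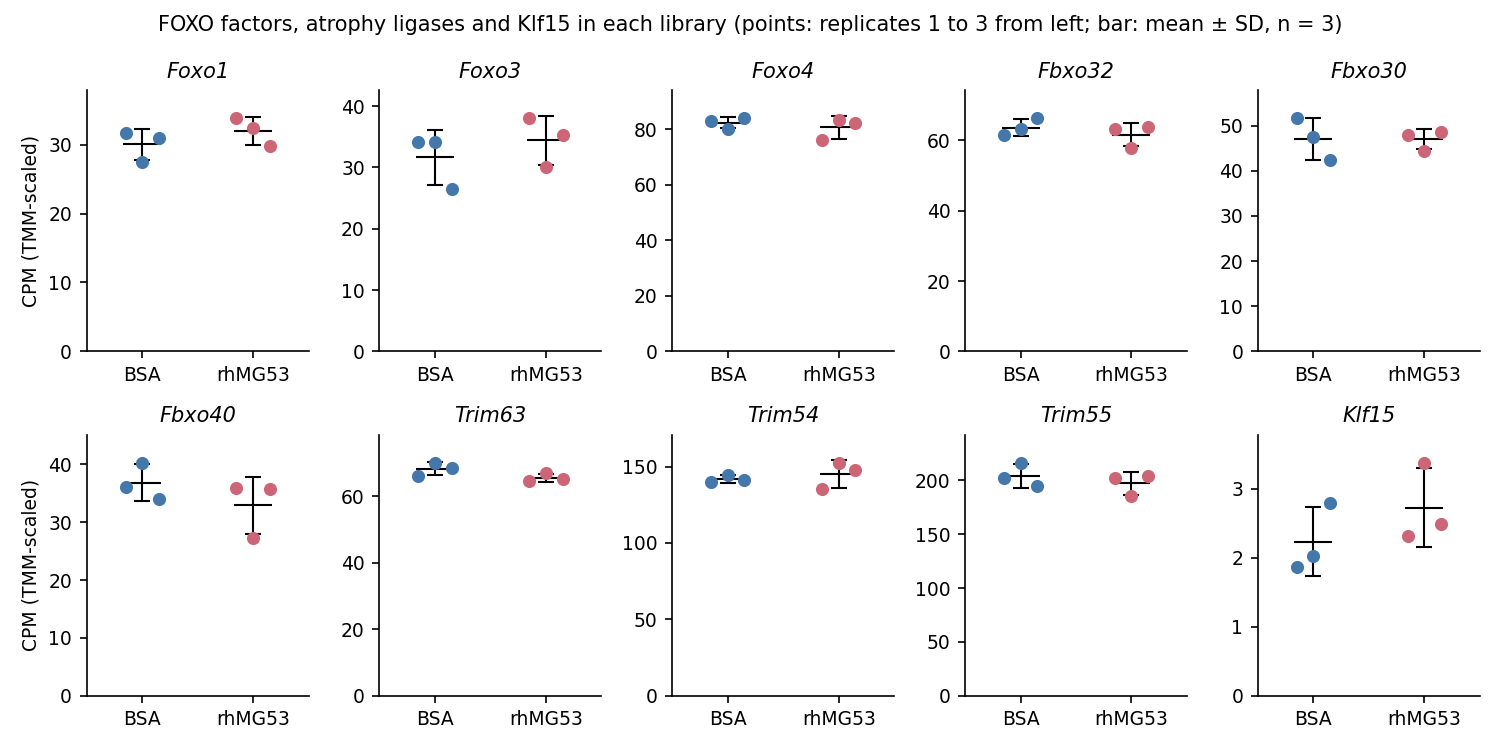
CPM on TMM-scaled library sizes (vertical axes from 0, a separate scale for each gene) in BSA (blue) and rhMG53 (red) libraries, replicates 1 to 3 from left to right, with the mean and SD of 3 libraries. In all 10 genes the points of the groups overlap.

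Of the FOXO factors, Foxo1 (gene ID 56458, GRCm38.p6 chromosome 3, 52268337 to 52350109), the form most tied to insulin's control of metabolism, stood at 31.7, 27.5 and 31.0 CPM with BSA and at 33.8, 32.4 and 29.8 CPM with rhMG53 (replicates 1 to 3 in this order, here and below). Its rhMG53 values exceeded the highest BSA value in 2 libraries and fell inside the BSA range in the other. The fold change was 1.06 (95% interval 0.941 to 1.20, adjusted p = 0.981 in edgeR). On the log2 scale it was 0.089. With 1 library left out it ran from 0.030 (without BSA replicate 2) to 0.135 (without rhMG53 replicate 3), and was 0.046 without rhMG53 replicate 1. Foxo3 (56484, chromosome 10, 42181845 to 42276695), the form best known for driving Fbxo32 in wasting muscle, was at 34.2, 34.2 and 26.5 CPM with BSA and at 38.0, 30.1 and 35.3 CPM with rhMG53. BSA replicate 3 was the lowest of the 6 and rhMG53 replicate 1 the highest. The fold change was 1.09 (interval 0.917 to 1.29, adjusted p = 0.981 in edgeR). On the log2 scale it was 0.123, and with 1 library left out it moved both ways. It came to 0.011, 0.045 and 0.104 without BSA replicate 3, rhMG53 replicate 1 and rhMG53 replicate 3. Without BSA replicate 1, BSA replicate 2 and rhMG53 replicate 2 it came to 0.187, 0.180 and 0.211, so its size rested on single libraries.

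Foxo4 (54601, chromosome X, 101254261 to 101260873) was the most abundant of the 3 FOXO transcripts per length and varied least within groups. It stood at 83.0, 80.1 and 83.9 CPM with BSA and at 76.1, 83.5 and 82.4 CPM with rhMG53, with a fold change of 0.979 (interval 0.892 to 1.08, adjusted p = 0.992 in edgeR). Only rhMG53 replicate 1 lay below the BSA range. Per kilobase Foxo4 made up 77.1 ± 1.48% of the summed level of the 3 genes with BSA and 75.3 ± 2.32% with rhMG53 (SD, n = 3 each). Foxo3 made up 12.6 ± 1.78% and 13.8 ± 1.81%, and Foxo1 10.3 ± 0.595% and 10.9 ± 0.877%. For each gene the group means differed by less than the larger SD, though not always by less than the SD with BSA. RNA levels say nothing of where the FOXO proteins were, which is how AKT controls them.

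The F-box genes encode the parts of SCF ubiquitin ligases that pick the substrate. Fbxo32 (67731, chromosome 15, 58175879 to 58214892), whose product marks the initiation factor eIF3f and MyoD for breakdown, stood at 61.4, 63.2 and 66.2 CPM with BSA and at 63.1, 57.8 and 63.8 CPM with rhMG53. Only rhMG53 replicate 2 lay below the BSA range. The fold change was 0.968 (SE of the log2 value 0.0651, interval of the fold 0.876 to 1.07, adjusted p = 0.988 in edgeR). Its log2 value was -0.048, and with 1 library left out it ran from -0.076 (without rhMG53 replicate 3) to -0.004 (without rhMG53 replicate 2). Fbxo30 (71865, chromosome 10, 11281330 to 11305750), also named MUSA1 and held down by BMP signalling in muscle, was at 51.6, 47.5 and 42.3 CPM with BSA and at 47.9, 44.5 and 48.7 CPM with rhMG53. All 3 rhMG53 values fell inside the BSA range, and the fold change was 0.997 (interval 0.882 to 1.13).

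Fbxo40 (207215, chromosome 16, 36963461 to 36990530), a muscle gene whose product targets insulin receptor substrate 1, had the lowest p of the 10 genes and still did not pass. It stood at 36.1, 40.3 and 34.0 CPM with BSA and at 35.9, 27.2 and 35.7 CPM with rhMG53. The value of rhMG53 replicate 2 was well below the rest, which overlapped. The log2 fold change was -0.16 (interval -0.40 to 0.08, adjusted p = 0.973 in edgeR). It was -0.039 without rhMG53 replicate 2 and -0.089 without BSA replicate 2. Leaving out any other single library made it larger in size, up to -0.227 without rhMG53 replicate 1.

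The MuRF proteins are RING-finger ligases of the sarcomere. MuRF1, the product of Trim63 (433766, chromosome 4, 134315120 to 134329629), marks thick filament proteins for breakdown. Trim63 was at 66.2, 70.1 and 68.6 CPM with BSA and at 64.6, 66.9 and 65.3 CPM with rhMG53. Its estimated biological coefficient of variation, 5.68%, was the lowest of the 10 genes. The rhMG53 replicates 1 and 3 lay just below the BSA range and replicate 2 inside it. The fold change was 0.960 (SE of the log2 value 0.0580, interval of the fold 0.879 to 1.05, adjusted p = 0.983 in edgeR). For the pair of classical atrophy markers, increases of more than 1.05-fold (Trim63) and 1.07-fold (Fbxo32) thus lie outside the 95% intervals. Decreases to 0.879 (Trim63) and 0.876 (Fbxo32) of the BSA level lie within them.

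Trim55 (381485, chromosome 3, 19644344 to 19692584) encodes MuRF2 and Trim54 (58522, chromosome 5, 31116612 to 31137626) MuRF3, relatives that also associate with microtubules in developing muscle. Trim55 stood at 202.0, 216.4 and 194.6 CPM with BSA and at 202.5, 185.2 and 204.0 CPM with rhMG53 (fold change 0.965, interval 0.874 to 1.07). Trim54 was at 139.7, 144.5 and 140.9 CPM with BSA and at 135.0, 152.5 and 147.7 CPM with rhMG53 (fold change 1.02, interval 0.931 to 1.13). For Trim55 only rhMG53 replicate 2 lay below the BSA range, while for Trim54 2 libraries with rhMG53 lay above the BSA range and 1 below it. GENCODE places an antisense gene over 26.6% of the Trim54 exon length, over 7.78% for Foxo1 and over 2.67% for Fbxo32. Reads of such partners cannot be told apart here because the strand setting of the counting is not given in the sources used here. Per kilobase the MuRF mix was 46.2 ± 0.674% Trim54, 36.8 ± 0.971% Trim55 and 17.0 ± 0.362% Trim63 with BSA. With rhMG53 it was 47.7 ± 2.14%, 35.9 ± 2.20% and 16.4 ± 0.343% (SD, n = 3 each). The Trim63 share was 16.7% to 17.4% with BSA and 16.0% to 16.6% with rhMG53. The ranges lay close without overlapping, a contrast picked out after its values were seen and not tested.

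Klf15 (66277, chromosome 6, 90461043 to 90491803), a transcription factor gene that glucocorticoids switch on in muscle and that promotes amino acid breakdown, was the lowest of the set. It had 36 to 62 counts per library, at 1.86, 2.03 and 2.80 CPM with BSA and at 2.32, 3.38 and 2.49 CPM with rhMG53. The groups overlapped, with rhMG53 replicate 2 the highest. Its log2 fold change was 0.30 (SE 0.225, interval -0.20 to 0.80, adjusted p = 0.973 in edgeR), and it ran from 0.118 without rhMG53 replicate 2 to 0.491 without BSA replicate 3. As folds of the BSA level, the bounds of this interval are 0.872 and 1.74.

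**Figure D3:**
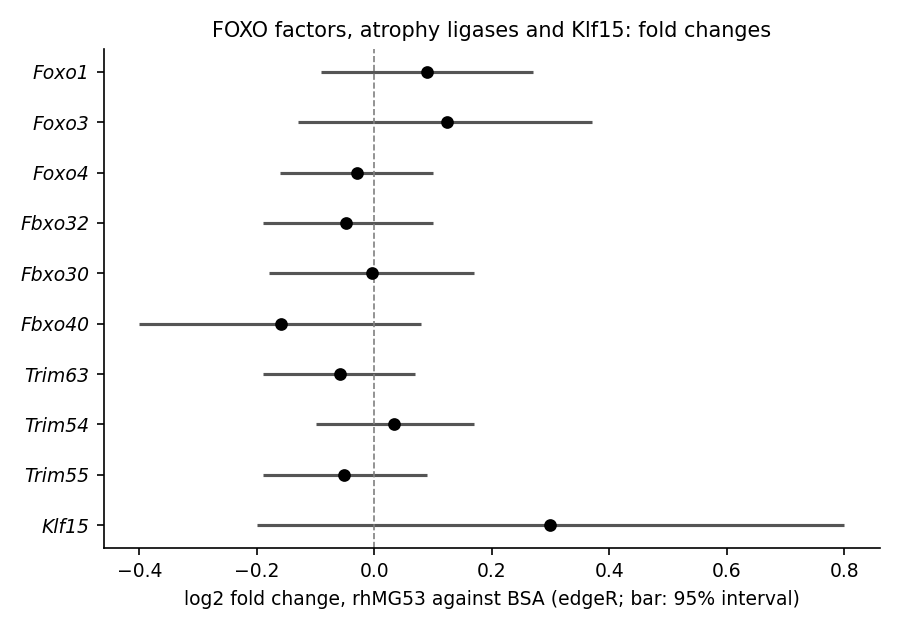
log2 fold change of rhMG53 against BSA (horizontal axis) with its 95% interval from edgeR for each gene. Every interval includes 0, and that of Klf15, from -0.20 to 0.80, is the widest.

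The other genes were measured more precisely. For the 9 genes other than Klf15, with 481 to 4571 counts in a library, the fold changes lay between 0.896 and 1.09, and no interval reached below 0.760 or above 1.29. Counting error alone gives a coefficient of variation of 1.62% to 4.11% at their mean counts and of 14.6% for Klf15. The observed spread within a group was 1.76% to 15% for the 9 genes, and 22.6% and 20.8% for Klf15.

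Over the 6 libraries the genes did not vary as a block. The Pearson r of log2 CPM over the 45 pairs had a median of -0.14 and ran from -0.85 (Fbxo40 with Klf15) to 0.96 (Fbxo40 with Trim55), as a description of 6 libraries of 2 groups that share scaling. Foxo3 and Fbxo30 had an r of 0.82. Foxo3, Fbxo30, Fbxo40 and Trim55 each had their 2 lowest values in BSA replicate 3 and rhMG53 replicate 2, the libraries in which long transcripts were low. Their exon lengths are 7405, 5197, 5495 and 2595 bases, so of them only Foxo3 was among the longest 10% (from 7306 bases). Foxo1 (8665 bases), the longest of the 10 genes, was lowest in BSA replicate 2. Fbxo32 (6976 bases) was highest in BSA replicate 3 and lowest in rhMG53 replicate 2. The part of the difference in long transcripts in these correlations was not tested. The Trim63 to Fbxo32 ratio per kilobase was 3.99, 4.10 and 3.83 with BSA and 3.79, 4.28 and 3.79 with rhMG53. Among 10124 named genes with at least 5 CPM, those most like Fbxo32 over the libraries were Mtrex (r = 0.9753), Ulk1 (0.9708) and Glis2 (0.9670). Those most like Trim63 were Ptpre (0.9793), Sucla2 (0.9759) and Gga3 (0.9743). The median gene's best match had an r of 0.9920, so these matches are less close than those of most genes over so few libraries.

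None of the genes listed here for insulin and AKT signalling or as FOXO cofactors passed either. Of 18 genes of insulin and AKT signalling, 10 were higher and 8 lower with rhMG53, where 49.5% of all tested genes were lower. In edgeR 0 passed, against 0.0218% of all tested genes, and 0 had an unadjusted p under 0.05, against 5.20%. The median difference on the log2 scale was 0.011. Akt1, the kinase gene, was at 394.9, 413.2 and 391.5 CPM with BSA and at 412.8, 416.7 and 414.7 CPM with rhMG53 (log2 fold change 0.05, interval -0.07 to 0.18). Irs2, an insulin receptor substrate gene and itself a FOXO target, was at 3.05 to 4.85 CPM (log2 fold change 0.29, interval -0.11 to 0.69), and Sgk1, a kinase gene of the same family as AKT, one of -0.08 (interval -0.27 to 0.11). Of 11 genes for FOXO cofactors and modifying enzymes, 3 were higher and 8 lower, against 49.5% lower over all tested genes. Again 0 passed, against 0.0218% of all tested genes, and the median was -0.037. The remaining FOXO gene, Foxo6, was at 24.7, 27.9 and 29.1 CPM with BSA and 28.9, 32.3 and 30.0 CPM with rhMG53 (0.16, interval -0.02 to 0.34). Skp2 (0.24) and Usp7 (-0.08), whose products act on FOXO1 and FOXO4 through ubiquitin, were the 2 of these 11 whose groups did not overlap, against 10.8% of all tested genes, and had an adjusted p of 0.970 and 0.973 in edgeR.

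Known FOXO target genes other than the ligases gave 0 calls in edgeR, against 0.0218% of all tested genes. Of 22, 17 were higher and 5 lower, where 49.5% of all tested genes were lower, and their median was 0.052 on the log2 scale. At an unadjusted p under 0.05 there were 3, against 5.20% of all tested genes. The groups did not overlap in 2 of the 22, against 10.8%. The lowest p was that of Txnip, which encodes a thioredoxin-binding protein that limits glucose uptake. Txnip stood at 59.0, 62.0 and 61.3 CPM with BSA and at 52.9, 43.8 and 40.5 CPM with rhMG53. Its groups did not overlap, with all 3 rhMG53 libraries below the BSA range. The log2 fold change was -0.41 (SE 0.0909, interval -0.61 to -0.21), and the adjusted p was 0.855 in edgeR, 0.146 in DESeq2 and 0.908 in limma voom. In edgeR that adjusted p was 0.0696 without rhMG53 replicate 1, at a log2 fold change of -0.528, and 0.0930 with no filter beyond a total of 1 count. It was 0.999 without BSA replicate 1, where the log2 fold change was -0.428. Under the 16 alternatives the log2 fold change stayed between -0.53 and -0.33. Eif4ebp1, a brake on translation (0.21, interval 0.03 to 0.39), and the stress gene Gadd45a (0.18, interval 0.02 to 0.35) had an adjusted p of 0.946 in edgeR.

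Of 21 other ubiquitin ligases and enzymes tied to muscle loss, 11 were higher and 10 lower (median 0.001 on the log2 scale). Here too 0 passed in edgeR, against 0.0218% of all tested genes, and 0 had an unadjusted p under 0.05, against 5.20%. The groups did not overlap in 1 of the 21, against 10.8% of all tested genes. The chaperone-linked ligase gene Stub1 was at 34.1, 35.9 and 39.5 CPM with BSA and 40.5, 42.0 and 38.0 CPM with rhMG53 (0.14, interval -0.03 to 0.31). Usp19, a deubiquitinase gene induced in wasting muscle, was below the BSA range in all 3 rhMG53 libraries (254.2, 257.7 and 243.2 CPM against 240.8, 224.3 and 241.1 CPM, log2 fold change -0.10, adjusted p = 0.970 in edgeR).

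Around Klf15, the 13 tested genes of the glucocorticoid response and of KLF15's targets gave 8 higher and 5 lower. Over all tested genes 49.5% were lower. The median of the 13 was 0.040, with 0 calls in edgeR, against 0.0218% of all tested genes. At an unadjusted p under 0.05 there were 2, against 5.20% of all tested genes. The groups did not overlap in 2 of the 13, Cebpd and Per1, against 10.8% of all tested genes. Zbtb16 was too low to test, at 2 to 8 counts per library. Cebpd, a transcription factor gene of the acute phase and glucocorticoid response, was at 6.59, 6.27 and 8.25 CPM with BSA and at 9.24, 12.8 and 9.56 CPM with rhMG53. All 3 rhMG53 libraries lay above the BSA range. Its log2 fold change was 0.58 (interval 0.24 to 0.92, adjusted p = 0.935 in edgeR and 0.585 in DESeq2). The clock gene Per1, which glucocorticoids induce, lay below the BSA range in all 3 (29.5, 27.2 and 31.8 against 27.0, 24.4 and 25.4 CPM, log2 fold change -0.20, adjusted p = 0.946 in edgeR). The log2 fold change of Cebpb, another factor gene of that family, was 0.40 (interval -0.02 to 0.83). With 1 library left out it ran from 0.171 (without rhMG53 replicate 2) to 0.586 (without BSA replicate 3).

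Genes for substrates and partners of the ligases split 6 and 6, with a median of 0.012. They gave 0 calls in edgeR, against 0.0218% of all tested genes, and 2 of 12 had an unadjusted p under 0.05, against 5.20%. The groups did not overlap in 3 of the 12, against 10.8% of all tested genes. Eif3f, the translation factor gene whose protein atrogin-1 targets, was at 98.6, 103.7 and 107.0 CPM with BSA and at 112.7, 125.0 and 111.7 CPM with rhMG53 (0.18, interval 0.03 to 0.32, adjusted p = 0.940 in edgeR). Ankrd2, a titin-associated stretch-response gene (0.32, adjusted p = 0.935), and Smad7, an inhibitor of TGF-beta signalling (0.25, adjusted p = 0.950), also had all 3 rhMG53 libraries above the BSA range. RNA counts do not show whether the proteins were degraded. Over all 6 lists, 10 of 97 tested genes had groups that did not overlap, close to the 10.8% of all genes, and 7 had an unadjusted p under 0.05, against 5.20%.

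**Figure D4:**
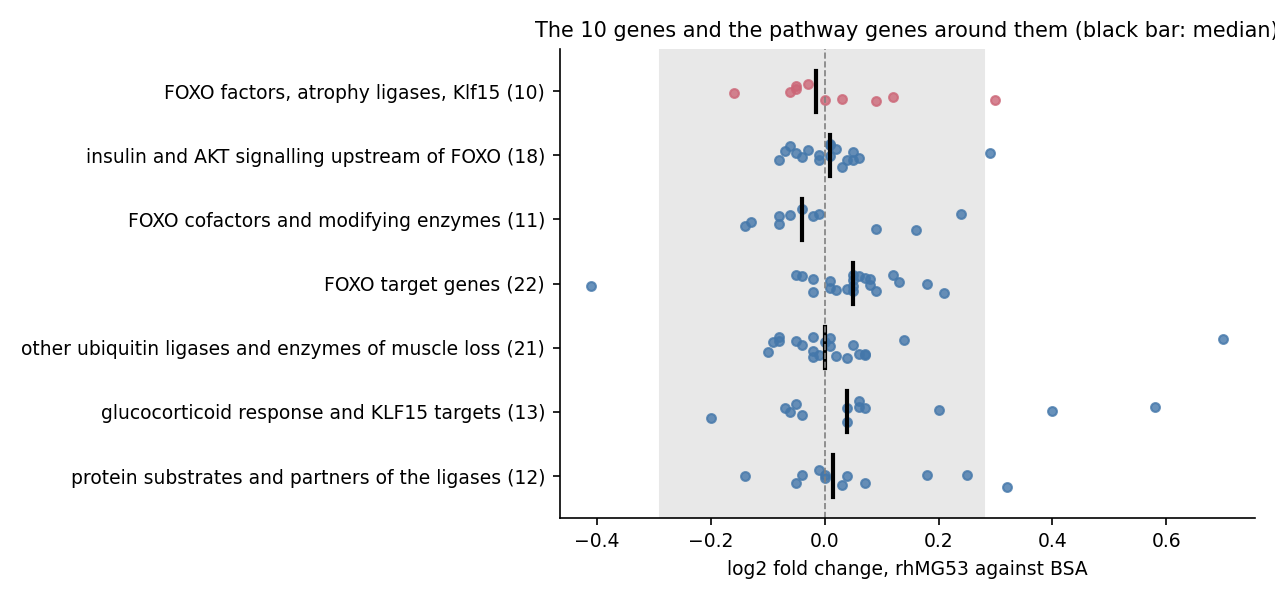
log2 fold change of rhMG53 against BSA (horizontal axis) for the 10 genes (red) and the genes of 6 surrounding lists (blue), with the number tested in brackets, a black bar at each median, and a grey band from the 5 to the 95 percentile of all tested genes (-0.29 to 0.28). All medians lie within 0.052 of 0; the lowest point is Txnip (-0.41), and Cebpd lies at 0.58.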

How the data were processed

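The authors deposited whole-number counts per NCBI gene ID, not normalised. The submitters' processing notes name mm10, STAR, featureCounts and edgeR, without versions. Annotation, strand setting and handling of reads with several matches were not given in the sources used here. Libraries were directional and poly(A)-selected, per the labels' protocols. IDs were named through RefSeq (GRCm38.p6, 25275 IDs). Exon lengths are the union of exons in GENCODE M21, which may differ from the authors' gene models.

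Genes were kept with filterByExpr (minimum count 10, minimum total 15), scaled with TMM factors and tested with edgeR 4.0.16 (quasi-likelihood, treatment as the only term, 2-sided, Benjamini-Hochberg over 13769 genes, threshold 0.05). SE is the log2 fold change over the square root of F. CPM uses TMM-scaled library sizes, except marker sums. Alternatives were DESeq2 1.42.0, limma 3.58.1 voom, other scalings and filters, and the replicate number as a term. Separate alternatives left out each library in turn and, added later, 2 libraries. The fit was tested on simulated counts. No pair of libraries agreed within counting error.

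The genes and lists were chosen with earlier results of these data known. Named beyond the 10 are the 3 genes of smallest p of each list and the 3 most correlated with Fbxo32 and with Trim63. A gene that this rule names is not reported here.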

Additional observations from a re-analysis of the deposited data

How the results depend on the processing

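No FOXO factor, atrophy ligase or Klf15, and no other pathway gene, passed under any of the 16 alternatives that could test it. The lowest adjusted p of the 10 genes was 0.789, and Klf15 dropped out with a minimum mean of 5 CPM. The number higher with rhMG53 was 3 to 5 of the tested genes. With sizes this near 0, 4 genes changed sign somewhere. Fbxo30 was at 0.010 with library size alone and at -0.076 to 0.069 with 1 library left out. Foxo4 then ran from -0.056 to 0.010 and Trim54 from -0.004 to 0.083. Without both BSA replicate 3 and rhMG53 replicate 2, a choice added after the data were seen, Fbxo32 was at 0.026, Trim54 at -0.008 and 10 genes of the whole table passed. The median of the 10 ran from -0.040 to 0.001, the lowest without rhMG53 replicate 3. Over all genes, 3 calls became 5 with DESeq2, 6 with no filter beyond a total of 1 count, 0 to 4 with each library left out (0 without BSA replicate 2) and 0 with the replicate block. The cause was not tested. Replicate numbers share no stated origin, and deviations of same-numbered libraries correlated at 0.19, -0.13 and -0.15. The block changed no call among the 10 genes. Klf15, at 36 to 62 counts, had the widest interval.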
